A study of Homo sapiens with 2 samples.

Results

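TRF2 peaks in the centromere bands of chromosomes 3, 6, 10, 12 and 16 were described here in HCT116, a human colorectal carcinoma cell line. They were the peaks of the authors' list of immunoprecipitated over input DNA whose summit, the position of highest pileup, lay in the cytogenetic centromere band of hg38. The bands run from 87.8 to 94.0 Mb on chromosome 3, 58.5 to 62.6 Mb on chromosome 6, 38.0 to 41.6 Mb on chromosome 10, 33.2 to 37.8 Mb on chromosome 12 and 35.3 to 38.4 Mb on chromosome 16. The rule took 2186 of the 24258 peaks of the list (9.01%), and measured values played no part in it. The study had 1 library of TRF2-bound chromatin, pulled down from 100 μg of chromatin with 5 μg of a TRF2 antibody, and 1 input library, which had no antibody. Both came from HCT116 cells fixed with 1% formaldehyde 72 h after plating, and the chromatin was sonicated to about 300 to 400 bp. The labels mention no transfection, while the list's name mentions a control siRNA, and which of these holds is unknown. With 1 library of each kind nothing could be tested between samples, and all intervals below cover counting error only.

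TRF2, encoded by TERF2, is a part of shelterin, the complex that sits on telomere repeats, and it keeps chromosome ends from being joined or sensed as breaks. Centromeres are built on alpha satellite, a short monomer repeated in tandem, and on most chromosomes the monomers are grouped into higher-order repeats that recur with little change over long arrays. The alpha satellite of chromosomes 3, 6, 10, 12 and 16 belongs, by general knowledge, to the same suprachromosomal family as that of chromosomes 1, 5, 7 and 19, with alternating monomer types in a dimeric order. No sequence of these regions was analysed here, so that label was not checked against the data. The sources used here do not say how reads that align equally well to several copies of a repeat were handled, and a summit in such an array need not mark the copy a read came from.

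The first comparison asked how the peaks were shared between the 5 chromosomes. Chromosome 6 had the most, with 694 peaks (31.7% of the members), followed by chromosome 3 with 512, chromosome 10 with 501, chromosome 12 with 295 and chromosome 16 with 184. Because the bands differ in length, density gave another order. It was 169 peaks per Mb on chromosome 6 (exact Poisson 95% interval 157 to 182), 139 on chromosome 10 (127 to 152), 82.6 on chromosome 3 (75.6 to 90.1), 64.1 on chromosome 12 (57.0 to 71.9) and 59.4 on chromosome 16 (51.1 to 68.6). Neighbours in this order had intervals that did not overlap, except chromosomes 12 and 16. These intervals take summits as placed independently. In most of the longer runs described below, counts per window had a variance above their mean. The intervals may therefore be too narrow, and the order is given as a description. The 5 bands jointly held 101 peaks per Mb (97.0 to 106), against 197 (190 to 203) in the bands of chromosomes 1, 5, 7 and 19 and 178 (175 to 182) in the remaining centromere bands. In each of those groups 1 chromosome held a large part of the peaks. Without chromosome 1, which had 1986 of 3262, the first group had 96.7 per Mb (91.4 to 102), and without chromosome 13, which had 3317 of 9753, the second had 123 (120.1 to 126). Among strong peaks (−log10 q at least 5) chromosome 10 was the densest at 41.1 per Mb and chromosome 6 came next at 17.8.

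**Figure D1:**
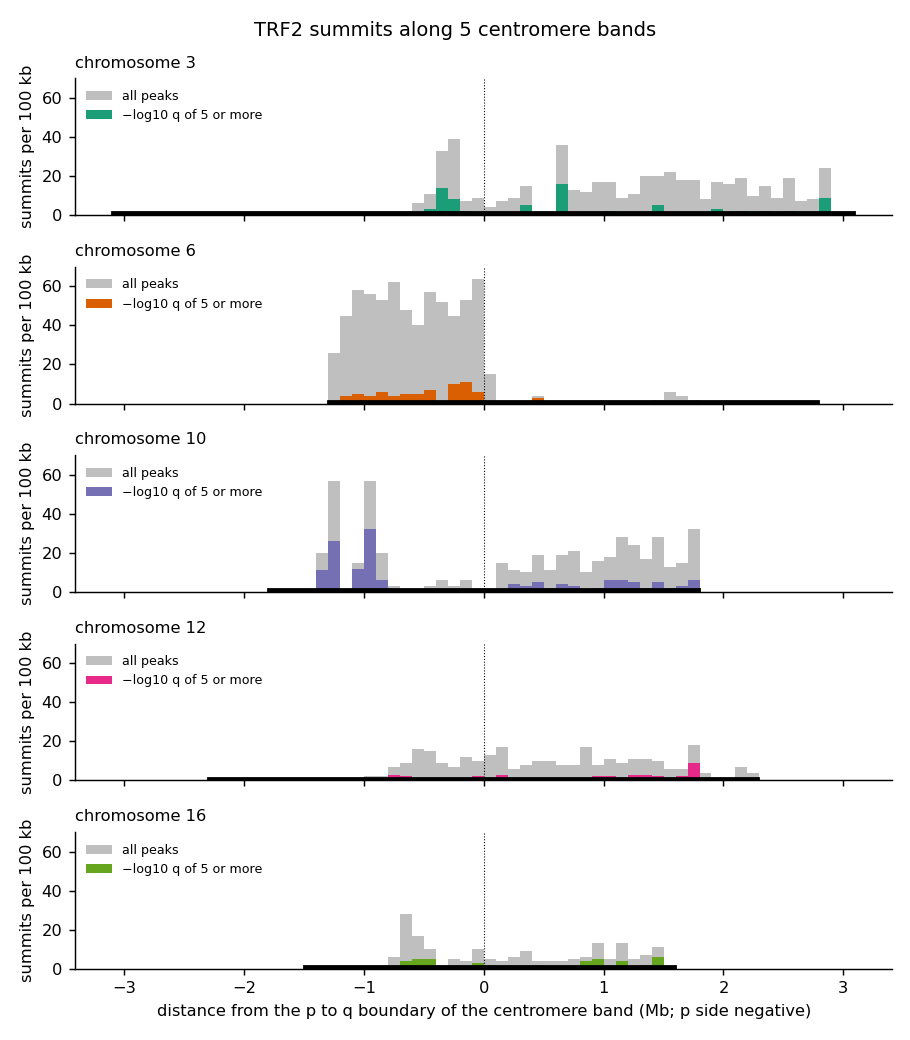
Summits per 100 kb along the centromere bands of chromosomes 3, 6, 10, 12 and 16, against the distance from the boundary between the p and q sides in Mb; grey bars are all peaks, coloured bars the strong ones, and the black line at the base marks the extent of the band. On chromosome 6 the p side held 659 of 694 peaks, and on chromosome 10 the p side held 89 of the 148 strong peaks.

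Within a band the peaks lay in long runs separated by stretches without peaks. No genome sequence was used, so whether these stretches hold known bases was not looked at. A run was taken as at least 10 summits with no more than 100 kb between neighbours. There were 11 such runs, holding 2167 of the 2186 peaks, and the other 19 peaks were scattered. On chromosome 6 a run from 58554321 to 59829863 held 674 peaks, 97.1% of that band, at 528 per Mb of run (489 to 570). The rest of the band, 2.8 Mb long on the q side of its boundary, held 35 peaks with the end of that run included. On chromosome 16 the only run, from 36014455 to 38280459, held 183 of 184 peaks at 80.8 per Mb (69.5 to 93.3). On chromosome 12 the run from 34682495 to 37401771 held 279 of 295 peaks at 103 per Mb (90.9 to 115). Chromosomes 6 and 12 each had a small second run on the q side, of 14 and 11 peaks.

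On chromosomes 3 and 10 the largest run held a smaller part of the band, 71.3% and 61.5% of the peaks. On chromosome 3 a run of 142 peaks (90282817 to 91300263) was followed, after an interval without peaks, by a run of 365 (91519642 to 93799600). Their densities were 140 (118 to 165) and 160 (144 to 177) per Mb of run, with overlapping intervals. On chromosome 10 there were 4 runs. The first, from 38483652 to 38595643, packed 77 peaks into 112 kb, or 688 per Mb (543 to 859). The second, from 38783477 to 39077303, held 95 peaks at 323 per Mb (262 to 395). A sparse run of 19 peaks came next, and the last, from 39844986 to 41583350, held 308 peaks at 177 per Mb (158 to 198). How a band divides depends on the gap allowed. With 50 kb the single run of chromosome 16 became 7 runs of 60.9 to 326 peaks per Mb, chromosome 12 had 5 runs, and the second run of chromosome 10 had 92 peaks at 502 per Mb. With 200 kb the first 2 runs of chromosome 10 joined at 186 per Mb. The long run of chromosome 6 held 674 peaks with each of the 3 gaps, but runs were built from peaks inside the band only and could not pass its edge.

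The evenness of the runs differed as well. In 12 consecutive windows of 100 kb, the long run of chromosome 6 held 44 to 62 summits (median 51), and the variance of these counts was 0.511 times their mean. Windows of the chromosome 12 run held 3 to 20 summits (variance 1.95 times the mean), those of the chromosome 16 run 3 to 26 (3.49 times) and those of the last chromosome 10 run 5 to 29 (1.99 times). The first run of chromosome 3 was the most uneven of those with at least 10 windows, with 5 to 38 summits per window (9.57 times the mean). A set of points placed independently would have a variance near the mean. The variance lay below the mean on chromosome 6 and above it in the 5 other runs with at least 10 windows. With only 12 windows, a departure of the chromosome 6 run from independent placing is not shown. This is a description, with no test.

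The next comparison asked how strongly the peaks exceeded their input. The fold at a summit is the authors' value. Its median was 4.39 on chromosome 16 (95% interval of the median 3.90 to 4.61), 4.09 on chromosome 3 (3.90 to 4.23), 3.99 on chromosome 10 (3.90 to 4.23), 3.90 on chromosome 12 (3.90 to 4.23) and 3.60 on chromosome 6 (3.50 to 3.64). Chromosome 6, with the densest peaks, thus had the lowest median fold, and its interval lay below those of the other 4. The other 4 intervals overlapped, so their order is not resolved. Over all members the median was 3.90, against 3.81 on chromosomes 1, 5, 7 and 19, 4.39 in the remaining centromere bands (4.15 without chromosome 13) and 3.76 on the chromosome arms. Of the 23 chromosomes with a peak in the centromere band, chromosome 6 had the lowest median fold. Its interval overlapped those of chromosome 1 (3.69, 3.61 to 3.75) and chromosome X (3.74, 3.43 to 3.93), so its place below them is not resolved.

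**Figure D2:**
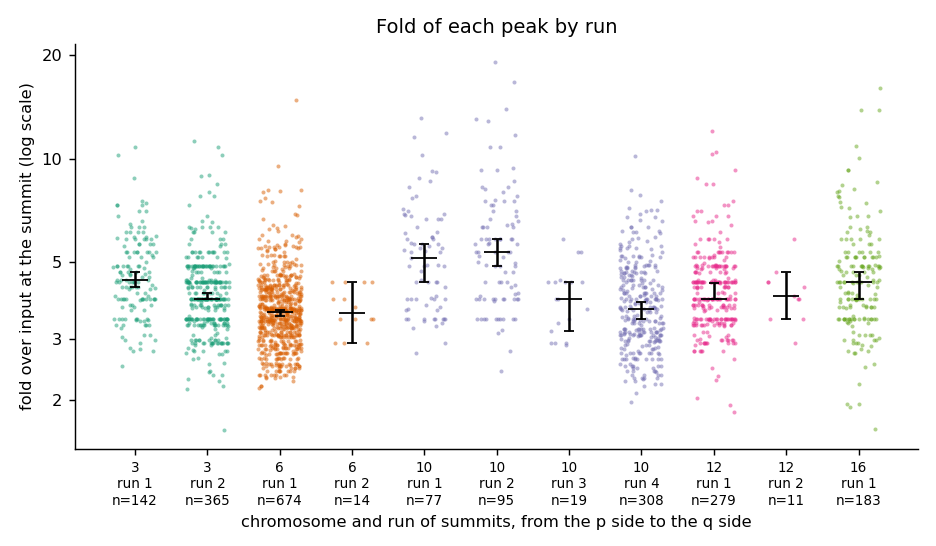
Fold over input at the summit (log scale) for each peak of the 11 runs, ordered by chromosome and from the p side to the q side; each point is a peak, and black marks give the median with its 95% interval. The first 2 runs of chromosome 10 have medians of 5.14 and 5.37, above the 3.66 of the fourth run of the same chromosome.

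The runs of one chromosome differed too. On chromosome 10 the median fold was 5.14 in the first run (4.39 to 5.64) and 5.37 in the second (4.88 to 5.85), against 3.66 in the last (3.42 to 3.84). On chromosome 3 it was 4.46 in the first run (4.23 to 4.70) and 3.90 in the second (3.90 to 4.09). The 172 peaks of the first 2 runs of chromosome 10 included 12 of the 13 peaks of that chromosome with a fold of 10 or more. Chromosome 16 had 5 peaks of that size, chromosome 3 had 5, chromosome 12 had 3 and chromosome 6 had 1. In all, 27 of the 2186 members had such a fold, against 476 of the 24258 peaks of the whole list.

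The reads behind these folds also differed between the chromosomes. The median pileup at the summit was 12 immunoprecipitated reads over a median input background of 2.32 on chromosome 6, and 12 over 2.26 on chromosome 10. It was 9 over 1.07 on chromosome 3, 9 over 1.13 on chromosome 16 and 8 over 1.13 on chromosome 12. The lowest background of the list was 1.05, here called the floor. Within 0.001 of it lay 48.8% of the chromosome 3 peaks (exact binomial interval 44.4% to 53.3%), 46.1% on chromosome 12 (40.3% to 52.0%), 35.3% on chromosome 16 (28.4% to 42.7%), 19.4% on chromosome 10 (15.99% to 23.1%) and 2.16% on chromosome 6 (1.21% to 3.54%). In the long run of chromosome 6 none of the 674 peaks was at the floor, and in the last run of chromosome 10 it was 4 of 308. In the strong second run of chromosome 10 it was 51 of 95. The higher input in the chromosome 6 run and in the last chromosome 10 run went with lower folds, of which the background is the denominator. Chromosomes differed when peaks between the floor and a background of 10 were set against those at the floor. The median fold of the former was lower on chromosomes 3 (4.19 against 4.39), 10 (3.94 against 4.39) and 12 (3.99 against 4.39). It was higher on chromosome 16, at 4.70 in 109 peaks against 3.90 in the 65 at the floor. On chromosome 6 it was 3.60 against 3.41, with 15 peaks at the floor. Over all members these medians were 3.76 and 4.39, and 676 of the 1559 peaks behind the first were on chromosome 6. Whether the input accounts for the differences in fold was not tested.

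**Figure D3:**
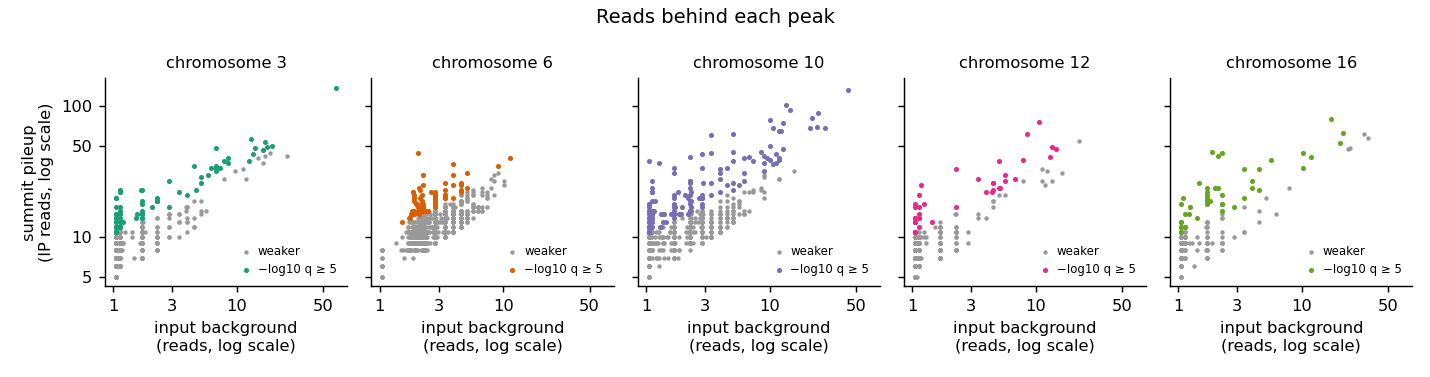
Pileup at the summit in immunoprecipitated reads against the local input background, which is not a whole count of input reads (both log scales). There is 1 point per peak and 1 panel per chromosome, and coloured points are strong peaks. Most chromosome 6 points stand to the right of the background floor of 1.05, whereas 48.8% of chromosome 3 points lie on it.

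At the floor a fold is a plain read count. The floor held 25.8% of the members and 29.5% of the whole list. Of the 563 members there, 117 had 6 reads (fold 3.41), 119 had 7 (3.90), 106 had 8 (4.39) and 72 had 9 (4.88), so medians of 3.90 and 4.39 are 1 read apart. A peak at the floor had a −log10 q of 5 or more only from 11 reads on, and 69 of the 563 (12.3%) reached it. The shallowest peaks of the list had 5 reads, as had 39 of these members, and the deepest member at the floor had 38.

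In the whole list 30.0% of peaks were strong, and 79.3% had a q-value under 0.05. Among the members 390 were strong, or 17.8% (exact binomial interval 16.3% to 19.5%), a smaller share than in the list (23.7% in the list without the bands of chromosomes 1 and 13). The shares were 29.5% on chromosome 10 (25.6% to 33.7%), 46 of 184 on chromosome 16 (interval of the share 18.9% to 31.9%), 15.8% on chromosome 3 (12.8% to 19.3%), 14.2% on chromosome 12 (10.5% to 18.8%) and 10.5% on chromosome 6 (8.34% to 13.04%). The intervals of chromosomes 10 and 16 included the share of the whole list. The first 2 runs of chromosome 10 held 50.6% (42.9% to 58.3%), against 18.5% (14.5% to 23.2%) in the rest of its band. On chromosomes 1, 5, 7 and 19 the share was 39.1%, but 19.98% without chromosome 1. In the remaining centromere bands it was 29.4%, but 16.9% without chromosome 13, and on the arms it was 12.05%. The members thus had a smaller share than both groups as a whole, and a share between the 2 values that were left without chromosomes 1 and 13. Among the members the strong share was 12.3% at the floor (median fold 4.39) and 18.0% between the floor and a background of 10 (3.76). At a background of 10 or more it was 64.1%, with a median fold of 2.96. The −log10 q depends on the read count as well as on the fold. Whether depth accounts for the differences in share was not tested. A q-value under 0.05 was met by 73.8% of the members, from 70.6% on chromosome 6 to 77.7% on chromosome 16. The median pileup was 11 reads among the members and 21 on chromosomes 1, 5, 7 and 19, where it was 27 on chromosome 1 and 12, 10 and 8 on chromosomes 5, 7 and 19.

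**Figure D4:**
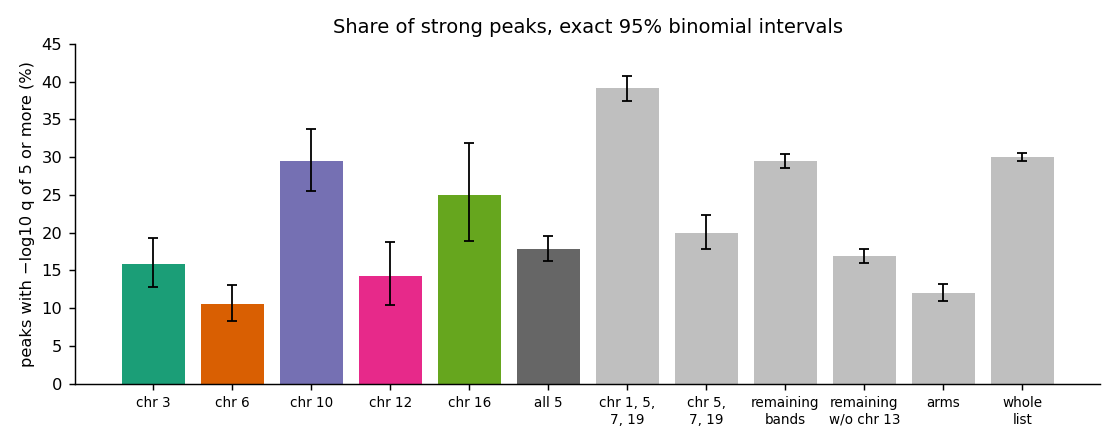
Share of strong peaks, in percent, for the bands of chromosomes 3, 6, 10, 12 and 16, for all 5, for chromosomes 1, 5, 7 and 19 with and without chromosome 1, for the remaining centromere bands with and without chromosome 13, for the arms and for the whole list; error bars are exact 95% binomial intervals. Chromosome 10 reached 29.5% and chromosome 6 10.5%, against 30.0% in the whole list.

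The 100 kb with the most strong peaks was then located in each band. On chromosome 10, 36 of the 148 strong peaks (24.3%) lay between 38770001 and 38870000, where 59 members had a median fold of 5.85. On chromosome 3, 16 of 81 lay between 91460001 and 91560000, at the start of its second run. On chromosome 12, 10 of 42 lay between 37170001 and 37270000, near the end of its long run. On chromosome 6 the densest 100 kb held 12 of 73, and on chromosome 16 it held 6 of 46. The members in these windows differed in input. Their median background was 1.13 on chromosome 10, 4.32 on chromosome 3, 7.90 on chromosome 12, 2.26 on chromosome 6 and 1.05 on chromosome 16. Beside the 5.85 of chromosome 10, their median fold was 4.15 on chromosome 3, 3.44 on chromosome 12, 3.70 on chromosome 6 and 4.70 on chromosome 16. The densest 100 kb of all peaks held 12.6% on chromosome 10, 8.40% on chromosome 3, 6.78% on chromosome 12 and 9.51% on chromosome 6, each below the share of strong peaks, and 16.8% on chromosome 16, above its 13.04%. The largest share in a window tends to be greater where fewer peaks are counted.

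The 3 peaks of highest fold in each band stood over input backgrounds of 1.05 to 3.38. The member of highest fold was on chromosome 10 in band p11.1, from 38899850 to 38899966, with 38 reads over a background at the floor and a fold of 19.03. It was followed there by peaks from 38785660 to 38785766 (fold 16.6, 37 reads over 1.28) and from 38790626 to 38790831 (fold 13.9, 60 reads over 3.38). All 3 lay in the second run of that chromosome. On chromosome 16 the peaks from 36724147 to 36724241, 36558944 to 36559025 and 37265892 to 37265973 had folds of 16.04, 13.9 and 13.8, with 45, 42 and 44 reads. They were 82 to 95 bp wide, and the third lay on the q side of the band.

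Chromosome 6 had 1 peak far above its others, from 59818843 to 59818961 in band q11.1. Its fold was 14.8, with 44 reads over 2.03, against 9.52 and 8.10 for the next 2 (59516493 to 59516607 and 59656927 to 59657111). It lay near the q end of the long run, and it was also the deepest peak of the band. On chromosome 12 the highest were at 37018738 to 37018824 (fold 11.99), 37128443 to 37128616 (10.4) and 36309240 to 36309347 (10.3), all in band q11. On chromosome 3 they were at 91520447 to 91520573 (11.3), 90673633 to 90673740 (10.8) and 93014166 to 93014327 (10.8). The last 2 had the same 22 reads over the same background of 1.13.

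Except on chromosome 6, the deepest peak of each band was another one, where the input was deep too. On chromosome 3 the peak from 93470366 to 93470798 had 138 reads over an input background of 63.7, so its fold was 2.15. In the list 38 peaks had exactly 138 reads and none had more. Whether 138 is an upper limit of the pileup was not tested, and the fold of 2.15 is given with that reservation. On chromosome 10 the peak from 39967581 to 39967671 had 133 reads over 42.9 (fold 3.05). Chromosome 16 had one of 80 reads over 17.2 from 38276168 to 38276445 (fold 4.44), and chromosome 12 one of 76 over 10.7 from 34715902 to 34716009 (fold 6.57). Members with a background of 10 or more numbered 64 (2.93%, against 6.69% of the whole list). Their median fold was 2.96 with a median pileup of 46.5 reads. On 3 chromosomes most or many of them sat together: 9 of 10 on chromosome 16 between 38265981 and 38280459, the end of its run, 8 of 11 on chromosome 12 between 37237585 and 37265509, and 8 of 16 on chromosome 3 between 91543971 and 91553268. The 24 on chromosome 10 were dispersed, with at most 3 within 50 kb, and chromosome 6 had 3 in all.

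Peaks were narrow throughout. The median width was 104.5 bp on chromosome 6, 90.5 bp on chromosome 3, 90 bp on chromosome 10, 87 bp on chromosome 12 and 86 bp on chromosome 16, against 104 bp in the whole list. Of the 2186 members, 362 had the smallest width in the list, 69 bp, as had 4171 of the 24258 peaks of the whole list. The widest on chromosome 10 ran from 38528535 to 38529898, or 1364 bp, inside the dense first run (fold 6.89, 26 reads). The widest on chromosomes 6, 3, 12 and 16 measured 516, 502, 424 and 347 bp, starting at 58973881, 93713188, 37237585 and 38266904. The last had a fold of 1.64 over an input background of 34.4, the lowest fold of its band.

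Since alpha satellite repeats in tandem, the distances between summits were examined for values that recur. Neighbouring summits were a median of 1433 bp apart on chromosome 6, 2300 bp on chromosome 10, 3867 bp on chromosome 3, 6078 bp on chromosome 12 and 6222 bp on chromosome 16. No distance stood out clearly when all pairs of summits 100 bp to 5 kb apart were sorted into 490 bins of 10 bp. On chromosome 6, with 1699 pairs, the fullest bin was 3140 to 3149 bp with 11 pairs, against a median of 3 per bin, and 700 to 709 bp and 1020 to 1029 bp had 10 each. On chromosome 10 the bins from 290, 1010 and 2410 bp held 7 pairs each, against a median of 2. On chromosome 3 those from 1620 and 3670 bp held 6 and that from 720 bp held 5, against 1. Chromosomes 12 and 16 had 174 and 141 pairs and no bin with more than 3. There, the fullest bins began at 1320, 1370 and 1440 bp on chromosome 12 and at 520, 580 and 4420 bp on chromosome 16. These numbers are too small to tell a repeat length from uneven spacing.

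Few peaks lay in the annotated genes of the bands. RefSeq lists 122 genes that reach into the 5 bands, 14 of them protein-coding and 91 pseudogenes, and their spans cover 12.98% of the band length. Of the 2186 summits, 2 lay in such a span (0.0915%, exact binomial interval 0.0111% to 0.330%). One was in ZNF37A, a zinc finger protein gene on chromosome 10 (38094337 to 38150293), with a fold of 4.39 from 8 reads and a −log10 q of 2.33. The other was in the long noncoding RNA gene LINC02963 on chromosome 12 (34191037 to 34219211), with a fold of 5.17 from 10 reads and a −log10 q of 3.85. Both were isolated peaks outside the runs. A further summit lay within 3 kb of the pseudogene LOC101929923 on chromosome 16 (fold 4.03, −log10 q 2.06). On chromosomes 3 and 6, gene spans cover 18.8% and 24.7% of the band and none of 512 and 694 summits lay in them. Summits were clustered, with 674 of those on chromosome 6 in 1 run, so the share of band length gives no expected count. Whether peaks avoid genes was not tested. Of the 138 gene rows left out, 63 were of chromosome 6 and 51 of chromosome 16, so genes may be missing. None of the 24 RefSeq promoter windows in the bands overlapped a member or lay within 1 kb of one. Without strand and exons in the gene table, the place of the 2 summits within their genes was not resolved.

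With the 100 kb gap that defines a run, no run went on across a band edge. The member nearest to an edge was the last on chromosome 10, 16.7 kb inside the q edge (fold 3.93), and the next peak lay 118 kb outside it (fold 3.41). On the p side of chromosome 6 the first member lay 54.4 kb inside (fold 4.10) and the nearest other peak 46.2 kb outside (fold 4.88). These distances together only just exceed 100 kb. With a gap of 200 kb the run would go on across this edge, as would those at the q edges of chromosomes 10 and 12. On the q side of chromosome 16 the last member lay 120 kb inside and the next peak 7981 kb beyond the edge. Whether reads could align between them was not looked at.

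Set among the 23 centromere bands with a peak, the 5 occupied the middle of the range in density and were spread more widely in other measures. Chromosome 6 ranked 9th in density and 4th in median input background, and chromosome 10 ranked 10th and 5th. Chromosome 3 ranked 12th in density, chromosome 12 15th and chromosome 16 16th. In median fold chromosome 16 ranked 3rd, chromosomes 3, 10 and 12 ranked 11th, 14th and 17th, and chromosome 6 23rd. The intervals of these medians overlapped among chromosomes 3, 10, 12 and 16, so their order in fold is not resolved. That of chromosome 6 overlapped those of chromosomes 1 and X. In the share of strong peaks chromosome 10 ranked 3rd, chromosomes 16, 3 and 12 ranked 7th, 12th and 16th, and chromosome 6 20th. Chromosomes 16, 12 and 3 ranked 10th, 17th and 19th in median background. Across the 23 bands, Spearman's rho was 0.192 between density and median input background, 0.178 between density and median fold and -0.216 between median background and median fold, given as a description since all bands share both libraries. The bands of chromosomes 1, 5, 7 and 19 spanned from 584 peaks per Mb on chromosome 1 to 32.6 on chromosome 19, a range that contains all 5 members.

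**Figure D5:**
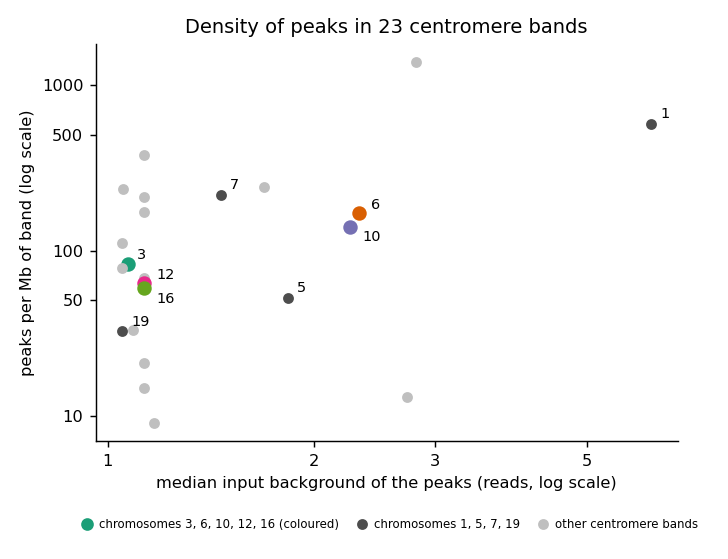
Peaks per Mb of centromere band against the median input background of those peaks (both log scales), 1 point for each of the 23 chromosomes with a peak in the band; coloured points are chromosomes 3, 6, 10, 12 and 16, dark points chromosomes 1, 5, 7 and 19, pale points the others. Chromosomes 6 and 10 stand at backgrounds of 2.32 and 2.26, and chromosomes 3, 12 and 16 at 1.07, 1.13 and 1.13.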

How the data were processed

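Peaks of 1 TRF2 library over 1 input library, on hg38, were used as deposited. Per the submitters' processing notes the tools were HOMER, ChIPseeker 1.36.0, MACS2 2.1.0 and Bowtie2 2.3.2; their settings were not given in the sources at hand. The score column, as deposited, is 10 times −log10 p without its decimals. The deposited fold is a ratio of immunoprecipitated pileup to local input background, and the −log10 of p-value and q-value, also deposited, belong to the same summit; no −log10 p was below 3.01. Pileup and background were recovered from fold and p with MACS2's forms (pileup plus 1 over background plus 1, upper Poisson tail). A whole pileup matched in 100% of peaks (tolerance 0.001, largest residual 0.00014), and 6 peaks had more than 1 match, of which the nearest was taken. No source used here gives library totals, so the depth is known at summits only.

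Centromere bands came from circlize 0.4.16 (R 4.3.3), gene spans from RefSeq (GRCh38.p14), leaving out 138 rows of these chromosomes listed out of positional order. Arms leave out the centromere bands with 2 Mb around them and the heterochromatin and stalk bands. Intervals are exact Poisson, exact binomial (Clopper-Pearson) or order-statistic intervals of a median, at 95%. The recovery and the distance counts were tested on simulated data. Named peaks are the 3 of highest fold, the deepest and the widest of each band; named genes hold a summit. The lowest fold, the runs, the strong clusters, the deep-input groups, the edges and the leaving out of chromosomes 1 and 13 from the other bands were chosen after the data were seen. Members and lists were chosen with earlier results of these data known. Sequence was not analysed, so planned motif counts were not made. Python 3.11.15 was used with matplotlib 3.10.9, pandas 2.3.3, scipy 1.17.1 and numpy 2.4.6. Coordinates are 1-based.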

Additional observations from a re-analysis of the deposited data

How the results depend on the processing

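Values are given for chromosomes 3, 6, 10, 12 and 16 in that order. With q under 0.05 the density was 62.3, 120, 105, 47.2 and 46.1 peaks per Mb, the median fold 4.39, 3.90, 4.51, 4.39 and 4.79, and the share of strong peaks 21.0%, 14.9%, 39.2%, 19.4% and 32.2%. With a −log10 q of 5 or more 390 peaks were left (81, 73, 148, 42 and 46), at 13.1, 17.8, 41.1, 9.13 and 14.8 per Mb and with median folds of 6.11, 5.53, 6.13, 5.85 and 6.34. With a pileup of 10 reads or more 1348 were left (192, 588, 374, 104 and 90), at 31.0, 143, 104, 22.6 and 29.0 per Mb, with median folds of 4.97, 3.67, 4.33, 4.94 and 5.20 and strong shares of 42.2%, 12.4%, 39.6%, 40.4% and 51.1%. Over the length from first to last summit the density was 96.7, 235, 146, 65.5 and 69.0. These filters leave out the shallow peaks by construction. The lowest median fold was that of chromosome 6 under each of these settings, while the highest density passed to chromosome 10 among strong peaks, and chromosome 10 no longer had the highest strong share at 10 reads or more.

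The reads behind the peaks and their spacing moved with the same filters. The median pileup was 9, 13, 13, 9 and 10 reads with q under 0.05, 17, 19, 20, 19.5 and 20 with a −log10 q of 5 or more, and 13, 13, 14, 13 and 15 with 10 reads or more. The median background was 1.13, 2.26, 1.89, 1.13 and 1.13 in the first of these settings. It was 1.67, 2.26, 2.22, 1.34 and 1.83 in the second, and 1.69, 2.65, 2.72, 1.69 and 1.69 in the third. The median distance between neighbouring summits was 5098, 2166, 2414, 7721.5 and 6790 bp in the first, 5455, 12371.5, 3345, 41081 and 17500 bp in the second, 5971, 1625, 2778, 13916 and 10684 bp in the third, and 1612 bp on chromosome 6 with close summits joined. The densest 100 kb held 19.8%, 16.4%, 24.3%, 23.8% and 13.04% of the strong peaks and 13.02%, 9.86%, 13.1%, 18.3% and 16.7% of those with 10 reads or more, and the densest 200 kb held 14.3%, 17.1%, 18.4%, 11.5% and 26.1% of all.

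The distance that recurred most moved in 22 of 35 settings. It was 230, 3040, 1010, 1370 and 260 bp with q under 0.05, 250, 3190, 2410, 2480 and 150 bp among strong peaks, and 3030, 700, 2410, 1820 and 260 bp with 10 reads or more. With close summits joined it was 3670, 2410 and 580 bp on chromosomes 3, 10 and 16, and with bins of 5 bp it was 3675, 705, 1605 and 510 bp on chromosomes 3, 6, 10 and 12.

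Joining summits under 300 bp apart (2074 loci), requiring at least 50% of the interval in the band (2186 peaks) or leaving out a chromosome (1492 to 2002 peaks) kept every count within 1.5 times. A run gap of 50 kb gave 22 runs and one of 200 kb gave 10, settings added after seeing the data. Leaving out chromosome 1 from chromosomes 1, 5, 7 and 19 gave 96.7 peaks per Mb and a strong share of 19.98%, and leaving out chromosome 13 from the remaining bands gave 123 and 16.9%, also settings added after seeing the data. Density over bases other than N was not run, since no genome was used. No paired analysis was possible because there was 1 library of each kind.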
